A study of Mus musculus with 6 samples.

Results

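The epidermal growth factor receptor system was followed through 10 genes in RNA of the mouse cranial base, the plate of cartilage and forming bone under the brain. The genes were Memo1, the 4 receptors Egfr, Erbb2, Erbb3 and Erbb4, the ligands Nrg1, Hbegf, Areg and Ereg, and the adaptor Shc1. They were chosen by symbol, with earlier results of these data known, and all 10 were found once among the 43496 entries of the expression table. The tissue came from embryos at E15.5, 3 labelled as controls and 3 as Memo1 mutants, all of the C57BL/6J strain, with 1 library per embryo. The mutants carried an allele of Memo1 made with ENU, the chemical mutagen N-ethyl-N-nitrosourea. What the controls carried at Memo1, the base change of the allele and its zygosity are not stated in the labels. Levels are in FPKM, fragments per kilobase of transcript scaled to library size. Because they are set per length, they allow a rough comparison between genes. How fully the reads of each gene were counted is not known, so orders between genes are approximate. The whole cranial base was sequenced, so fewer cells of a type and less RNA per cell cannot be told apart.

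ERBB receptors are tyrosine kinases of the cell surface. EGFR binds EGF, HB-EGF, amphiregulin and epiregulin. ERBB3 and ERBB4 bind neuregulins, ERBB2 has no known ligand of its own and acts as a partner, and ERBB3 has little kinase activity and signals through partners. Bound receptors pair, phosphorylate their tails and recruit adaptors such as SHC1, which lead to the RAS-ERK and PI3K-AKT pathways. MEMO1 (mediator of ErbB2-driven cell motility) was named for its part downstream of ERBB2. In the skeleton EGFR signalling acts on growth plate cartilage and on bone, and neuregulin with ERBB3 is best known for the support of Schwann cells along nerves.

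One library stood apart. Mutant 1 listed 30811 of the entries at 0, while each of the other 5 listed 19787 to 20594, and 823 entries above 5 FPKM in all of those 5 were at 0 in it. The table holds no counts. Steps between low values gave relative depths of 80.2% to 152% of control 1 for 4 libraries, with mutants 2 and 3 the deepest, and gave no depth for mutant 1. Of 1560 entries with a mean of 0.2 to 0.4 FPKM in the other 5 libraries, 91.4% were listed at 0 in mutant 1, against at most 9.36% in any other. Among 15710 tested genes mutant 1 was the highest library in 40%. Results are therefore given with all 6 libraries and without mutant 1.

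The sequences just before the start of 3 genes are shown because these genes mark the range of levels met here: Shc1 was the highest, Memo1 is the mutated gene, and Areg was near 0. RefSeq windows on the build GRCm38.p6 matched 6 of the 10 genes, and the 250 bases before the start are printed 5′ to 3′ on the strand of the gene. Capitals mark the GC box GGGCGG, the promoter element CCAAT, the TATA box motif TATAAA and the AP-1 site motif TGAGTCA as read on either strand. No expression value was read by position, since the submitters' notes name another build, mm9.
Shc1 (chr3:89418301-89418550, + strand): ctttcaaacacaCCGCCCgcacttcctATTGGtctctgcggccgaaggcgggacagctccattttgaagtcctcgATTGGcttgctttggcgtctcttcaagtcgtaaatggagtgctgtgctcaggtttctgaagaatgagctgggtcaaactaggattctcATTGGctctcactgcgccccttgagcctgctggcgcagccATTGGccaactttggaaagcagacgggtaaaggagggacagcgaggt
Memo1 (chr17:74294864-74295113, - strand): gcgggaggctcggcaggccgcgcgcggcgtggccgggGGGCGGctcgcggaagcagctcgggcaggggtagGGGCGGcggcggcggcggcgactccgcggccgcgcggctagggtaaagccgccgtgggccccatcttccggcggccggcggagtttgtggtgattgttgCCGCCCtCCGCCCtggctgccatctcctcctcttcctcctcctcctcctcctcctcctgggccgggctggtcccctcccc
Areg (chr5:91139349-91139598, + strand): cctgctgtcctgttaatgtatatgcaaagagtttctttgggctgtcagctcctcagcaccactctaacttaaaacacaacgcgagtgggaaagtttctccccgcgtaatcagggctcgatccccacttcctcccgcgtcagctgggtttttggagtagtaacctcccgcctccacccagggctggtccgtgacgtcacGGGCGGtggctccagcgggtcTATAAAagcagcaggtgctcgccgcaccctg
The Memo1 window held 32 CpG dinucleotides and a GC content of 77.2%, against a median of 6 CpG and 52.4% over all 32851 windows, and more CpG than 95.4% of them. It had 4 GC boxes, where 4.09% of windows had 4 or more and 32.7% had at least 1. The Shc1 window had 12 CpG and 4 CCAAT motifs, where 0.84% of windows had 4 or more. A second Shc1 start, further along the gene, had 4 CpG and the only TGAGTCA among the 7 windows of these genes (4.46% of all windows had one). Areg alone had TATAAA, which began 31 bases before its start and was in 12.4% of all windows. A match describes these letters and is no evidence of binding.

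The 10 genes covered a wide range of levels. By the mean over the 6 libraries the order was Shc1 at 70.8 FPKM, Erbb2 at 32.7, Egfr at 23.2, Memo1 at 22, Erbb3 at 10.2, Hbegf at 5.12 and Nrg1 at 2.46, with Erbb4, Areg and Ereg below 0.4 FPKM in every library. Shc1 lay above Erbb2, Memo1 above Erbb3, Erbb3 above Hbegf, and Nrg1 above Erbb4 in 6 of 6 libraries and with no overlap of ranges. Egfr was above Memo1 in 1 of 6 libraries, mutant 1. Erbb2 was above Egfr in the other 5 libraries, with no overlap. Hbegf was above Nrg1 within each of the 6 libraries, though the ranges overlapped when mutant 1 was counted. Erbb4 and Areg overlapped, and so did Areg and Ereg. The plot of levels by library shows which genes have separated groups and where mutant 1 lies.

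**Figure D1:**
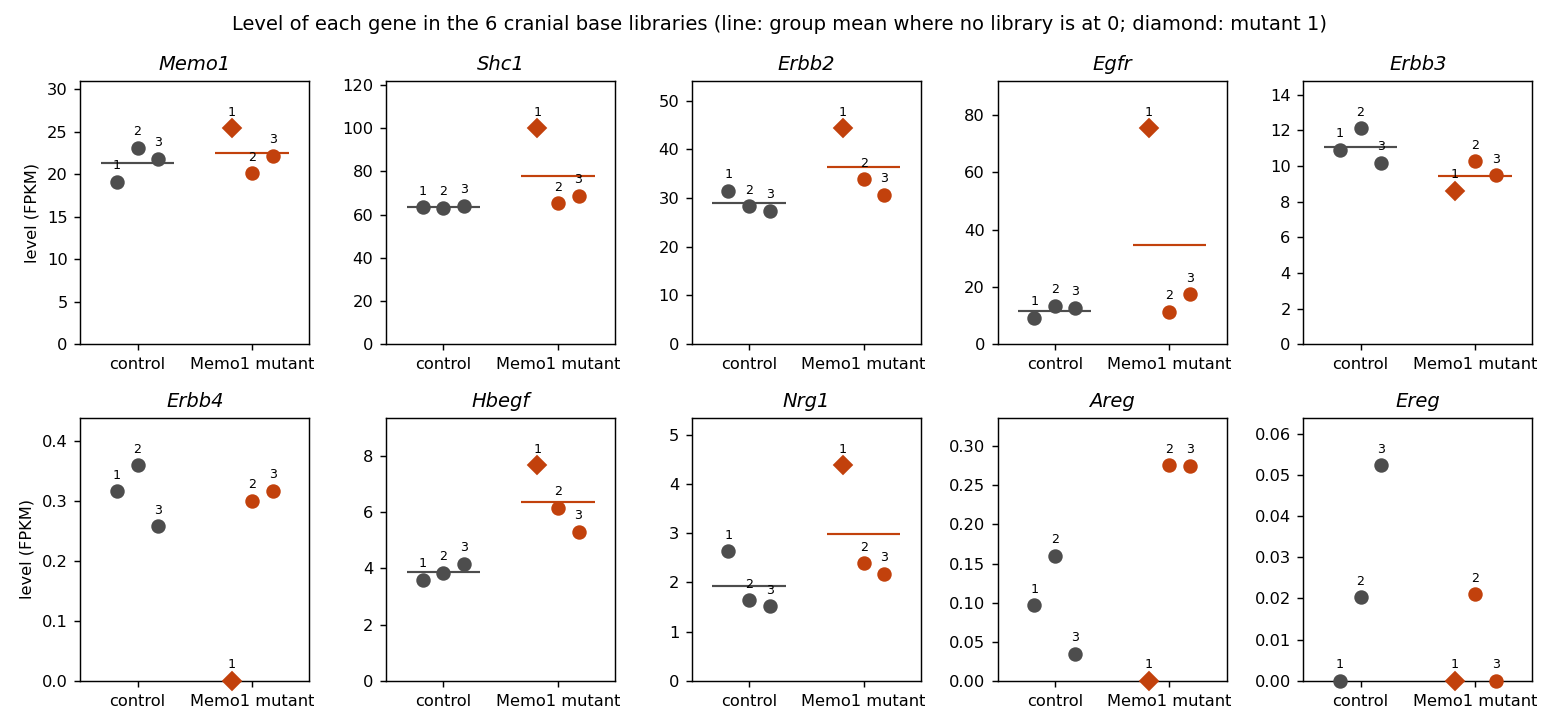
Level in FPKM (vertical axes, linear, from 0, each with its own scale) of the 10 genes in the 3 control and 3 Memo1 mutant libraries, numbered by replicate; lines are group means, drawn where no library is at 0, and the diamond is mutant 1. Hbegf and Shc1 have every mutant above every control, and Egfr in mutant 1 (75.3 FPKM) lies far from the other 5 libraries (9.15 to 17.4 FPKM).

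Memo1 was 19.1, 23.1 and 21.9 FPKM in controls 1, 2 and 3 and 25.4, 20.1 and 22.2 FPKM in mutants 1, 2 and 3. The groups overlapped, and both the highest and the next to lowest value came from mutants. The log2 change was 0.074 with an SE of 0.14, and its 95% interval ran from -0.28 to 0.42 (limma adjusted p = 0.802). Without mutant 1 it was -0.011, with an interval from -0.27 to 0.25. A level of RNA does not show whether an ENU allele is present, as such alleles are mostly single base changes, so this value does not check the labels. In the authors' deposited table Memo1 had a fold of 1.06 and a p-value of 0.577.

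Shc1, the adaptor that docks on phosphorylated ERBB tails and leads to RAS, was 63.3, 63.1 and 64.1 FPKM in the controls. The mutants had 99.9, 65.3 and 68.8 FPKM. Every mutant lay above every control, but mutants 2 and 3 did so by little: their mean was 1.06 times that of the controls. The log2 change was 0.27, SE 0.18 (limma adjusted p = 0.695), and 0.076, SE 0.069, without mutant 1 (limma adjusted p = 0.616). A separation of this kind was seen in 8.98% of all tested genes, so it does not set Shc1 apart.

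The receptors were led by Erbb2. Erbb2, the partner receptor, was 31.5, 28.3 and 27.4 FPKM in the controls, and the mutants had 44.3, 33.9 and 30.7 FPKM. Mutant 3 lay below control 1, so the groups overlapped. Its log2 change was 0.30, SE 0.17 (limma adjusted p = 0.695), and 0.15, SE 0.095, without mutant 1 (limma adjusted p = 0.483).

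Egfr, the receptor of most of the EGF-like ligands, was 9.15, 13.3 and 12.6 FPKM in the controls, and the mutants had 75.3, 11.3 and 17.4 FPKM. Mutant 2 lay within the controls and mutant 3 above them. The mean was 11.7 ± 2.24 FPKM (SD, n = 3) in the controls and 34.7 ± 35.4 FPKM (SD, n = 3) in the mutants, a ratio of 2.96, and the mean of mutants 2 and 3 was 14.3 FPKM. The log2 change of 1.04 had an SE of 0.69 and an interval from -0.66 to 2.73 (limma adjusted p = 0.695), and without mutant 1 it was 0.26, SE 0.22 (limma adjusted p = 0.599). In mutant 1 Egfr was 4.33 times the highest of the other libraries, and 3.79% of tested genes were at least as far above the others there. Of 3238 entries with a mean of 9 to 18 FPKM in the other 5 libraries, 10.8% were listed at 0 in mutant 1, against at most 0.0309% in any other. The part of that library's other departures in the Egfr value was not tested.

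Erbb3, the neuregulin receptor with a weak kinase, was the only tested gene of the 10 that was lower on average in mutants with all 6 libraries. It was 10.9, 12.1 and 10.2 FPKM in the controls, and the mutants had 8.6, 10.3 and 9.47 FPKM. Mutant 2 and control 3 crossed, and the other values were separate. The log2 change was -0.21, SE 0.15 (limma adjusted p = 0.695), and -0.15, SE 0.11, without mutant 1 (limma adjusted p = 0.533). The sign was negative under all 15 alternatives, with values from -0.26 to -0.15. Erbb4, the other neuregulin receptor, was 0.316, 0.36 and 0.258 FPKM in the controls, 0.3 and 0.318 FPKM in mutants 2 and 3, and listed at 0 in mutant 1. It was below the minimum mean of 1 FPKM and was not tested.

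As a share of the summed receptor FPKM, Erbb2 made up 60.8%, 52.3% and 54.3% in the controls and 60.8% and 53% in mutants 2 and 3. Erbb3 made up 20.2% to 22.4% in the controls and 18.4% and 16.4% in mutants 2 and 3, and Erbb4 at most 0.666% in any library. Both of these Erbb3 shares were below the lowest control. Egfr made up 17.6%, 24.6% and 25.1% in the controls, and 20.2% and 30.1% in mutants 2 and 3. In mutant 1 Egfr took 58.8% and Erbb2 34.5%. The ratio of Erbb2 to Erbb3 was 2.9, 2.34 and 2.69 in the controls and 5.15, 3.3 and 3.24 in the mutants. Every mutant lay above every control in this ratio, which was computed after the levels had been seen and was given no test. The ratios of Erbb2 to Egfr and of Egfr to Erbb3 were computed as well, and in both the groups overlapped. How often ratios of other gene pairs separate the groups was not computed.

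**Figure D2:**
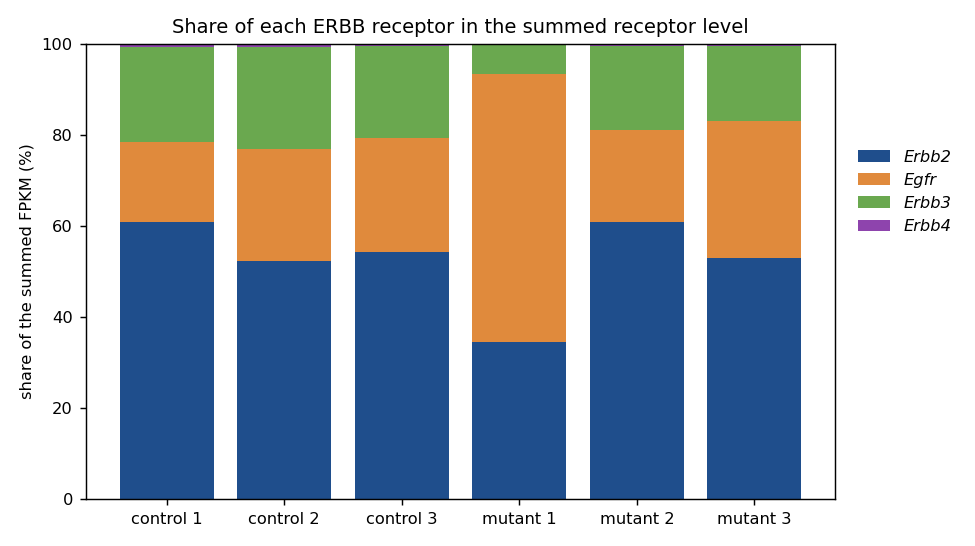
Share (percent, vertical axis) of Erbb2, Egfr, Erbb3 and Erbb4 in the summed FPKM of the 4 receptors, 1 bar for each of the 6 libraries. Erbb2 is the largest share in all libraries but mutant 1, where Egfr takes 58.8%; Erbb4, at most 0.666%, is barely visible at the top.

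Among the ligands Hbegf came closest to a difference. Hbegf, the heparin-binding ligand of EGFR and ERBB4, was 3.59, 3.85 and 4.17 FPKM in the controls, and the mutants had 7.67, 6.16 and 5.31 FPKM. Every mutant lay above every control. The mean was 3.87 ± 0.293 FPKM (SD, n = 3) in the controls and 6.38 ± 1.2 FPKM (SD, n = 3) in the mutants, a ratio of 1.65, and 1.48 times without mutant 1. The log2 change was 0.59, SE 0.22, with an interval from 0.040 to 1.14 (unadjusted p = 0.0394, limma adjusted p = 0.695). Without mutant 1 it was 0.47, SE 0.12 (unadjusted p = 0.00857, limma adjusted p = 0.152), and with array weights, by which limma counts a library far from its group less, 0.45, SE 0.12 (limma adjusted p = 0.101). Hbegf thus did not pass over all genes in any fit. Array weights gave mutant 1 a weight of 0.033 and the other libraries 1.47 to 2.76. That fit is therefore close to the one without mutant 1 and adds little to it. An unadjusted p under 0.05 was met by 5.12% of all tested genes with 6 libraries and by 17% without mutant 1. The authors' deposited table gave it a fold of 1.65 and a p-value of 0.0144; its q-value entry is 99, which no q-value can reach and which was read as missing.

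Embryos whose titles begin with the same word, of which the meaning is not given, also showed Hbegf higher in the mutant. The log2 difference was 0.92 between mutant 1 and control 1, and 0.33 between mutant 3 and the mean of controls 2 and 3. For Egfr these were 2.91 and 0.40, and for Erbb3 -0.31 and -0.21. Mutant 2 shares its word with no other embryo.

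Nrg1, the neuregulin that binds ERBB3 and ERBB4, was 2.63, 1.64 and 1.52 FPKM in the controls, and the mutants had 4.38, 2.39 and 2.18 FPKM. Control 1 lay above mutants 2 and 3, so the groups overlapped. The log2 change was 0.42, SE 0.34 (limma adjusted p = 0.695), and 0.18, SE 0.20, without mutant 1 (limma adjusted p = 0.676). Hbegf and Nrg1 made up nearly all of the summed level of the 4 ligands, with Hbegf at 56.8% to 72.2% and Nrg1 at 26.3% to 41.7%.

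Areg and Ereg, amphiregulin and epiregulin, are EGFR ligands and were near 0. Areg was 0.0964, 0.16 and 0.0344 FPKM in the controls, 0.276 and 0.275 FPKM in mutants 2 and 3, and listed at 0 in mutant 1. Mutants 2 and 3 had the greatest measured depth, and 95.3% of the 4505 entries with a mean of 0.03 to 0.28 FPKM elsewhere were at 0 in mutant 1. The part of depth in the Areg values was not tested. Ereg was listed at 0 in control 1, mutant 1 and mutant 3, and was 0.0203, 0.0523 and 0.021 FPKM in control 2, control 3 and mutant 2. Both were below the minimum and were not tested, and no fold is given against values at 0.

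Of the other 7 ligands of the family, 2 reached 1 FPKM on average. Tgfa, transforming growth factor alpha, which binds EGFR, was 3.58, 3.14 and 2.92 FPKM in the controls, with 4.35 and 4.1 FPKM in mutants 2 and 3. It was listed at 0 in mutant 1, and so were 42.2% of the 1380 entries with a mean of 3 to 4.5 FPKM in the other libraries. The log2 change was 0.31 without mutant 1 (limma adjusted p = 0.293) and -0.48 with it (limma adjusted p = 0.746), so this 1 library turned its direction. Btc, betacellulin, was 0.851, 0.418 and 0.603 FPKM in the controls, and the mutants had 3.11, 1.06 and 1.18 FPKM. Its log2 change was 0.71, SE 0.39 (limma adjusted p = 0.695). The groups did not overlap, and 8.98% of all tested genes were separated upward in this way. Btc reached the minimum only through the mutants (mean 1.78 FPKM, against 0.624 FPKM in the controls), so the filter favoured such a separation. Egf, Epgn, Nrg2, Nrg3 and Nrg4 were all listed at 0 in mutant 1 and did not reach the minimum.

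Read across the genes, 7 of the 10 passed the minimum and were tested. With all 6 libraries 0 of the 7 were called at a limma adjusted p under 0.05, where 0% of 15710 genes were called, and 1, Hbegf, had an unadjusted p under 0.05. With array weights 0 of 7 were called, against 2.04% of all genes, and without mutant 1 0 of 7, against 0.0446%. Of the 7, 6 had a log2 change above 0, against 45.8% of all tested genes, and 5 without mutant 1, against 47%. The median log2 change of the 7 was 0.30, and -0.046 over all genes. Without mutant 1 these medians were 0.15 and -0.015. Mutant 1 was the highest library for 6 of the 7. Every mutant lay above every control for Hbegf and Shc1, which is 2 of 7 against 8.98% of all genes, and for 0 of 7 below, against 11.9%. Mutants 2 and 3 alone lay above every control for the same 2 genes, where 16.2% of all genes did. The plot of changes shows how far each interval narrows without mutant 1.

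**Figure D3:**
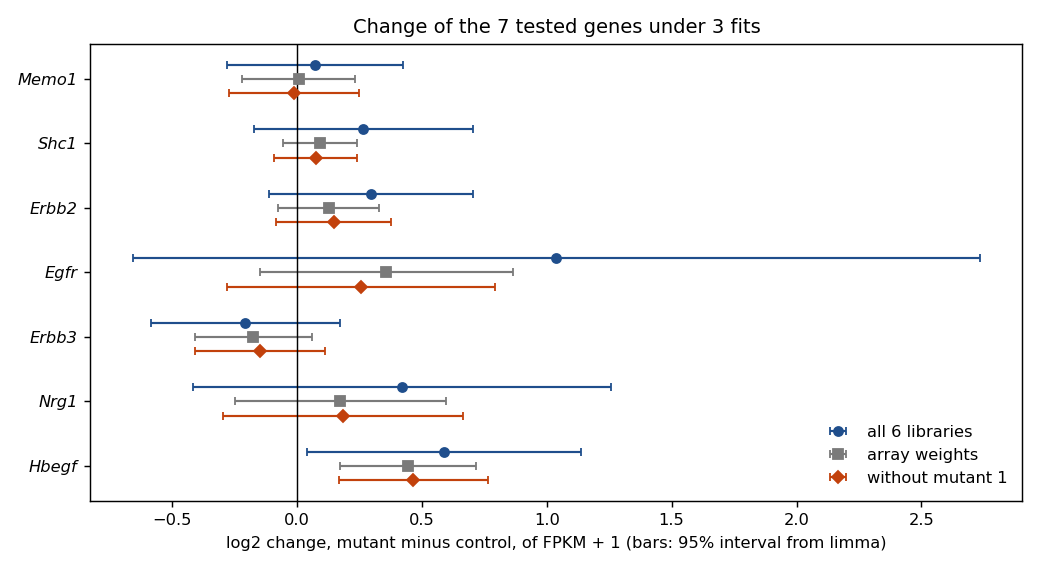
Log2 change of FPKM + 1, mutant minus control (horizontal axis), of the 7 tested genes in 3 fits (all libraries, array weights, mutant 1 left out); points are limma estimates and bars their 95% intervals, not adjusted for the number of genes. Hbegf has intervals above 0 in all 3 fits, though array weights gave mutant 1 a weight of only 0.033, so that fit is close to leaving it out. The interval of Egfr with all 6 libraries runs from -0.66 to 2.73 and shrinks to -0.28 to 0.79 without mutant 1.

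The pathway around the receptors showed no called gene either. In 7 further lists with 66 genes, 60 were tested and 0 were called in any fit. An unadjusted p under 0.05 with all 6 libraries was met by 1 of the 60 (1.67%, against 5.12% of all genes), namely Akt2. Every mutant lay above every control for 10 of the 60 and below for 4, against 8.98% and 11.9% of all genes. The 10 include Btc, which passed the minimum only through the mutants. A log2 change above 0, counted below for each list, was seen in 45.8% of all tested genes, and in 47% without mutant 1.

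Among 7 genes for the release of membrane-bound ligands, 6 had a log2 change above 0 (median 0.12), and 4 without mutant 1 (median 0.040). Adam9, a membrane metalloprotease, was 14.6, 16.1 and 15.4 FPKM in the controls, and the mutants had 20.6, 16.2 and 15.4 FPKM. Adam12, a protease that can shed HB-EGF, was 15.46, 17.76 and 18.58 FPKM in the controls, and the mutants had 33.9, 15.6 and 18.5 FPKM. Rhbdf2, a rhomboid-like protein that carries ADAM17 to the cell surface, was 2.72, 2.64 and 3.37 FPKM in the controls, and the mutants had 8.55, 4.19 and 2.85 FPKM (log2 change 0.56, SE 0.39, limma adjusted p = 0.695).

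Adaptors and proximal signalling genes had the highest list median of those with more than 2 tested genes outside the 10. Of 12 tested, 10 had a log2 change above 0 (median 0.20), and all 12 without mutant 1 (median 0.14), against 45.8% and 47% of all tested genes. Some of the 12 were close to 0 without mutant 1, such as Nck1 at 0.0043 and Sos2 at 0.013, and Sos2 was -0.015 with array weights. Shc2, a relative of Shc1, was 13.8, 11.9 and 12.1 FPKM in the controls, and the mutants had 16.4, 15 and 16.1 FPKM, with no overlap (log2 change 0.31, SE 0.13, limma adjusted p = 0.695). Plcg1, a phospholipase that binds activated EGFR, was 32.8, 35.8 and 31.4 FPKM in the controls, and the mutants had 38.6, 40 and 37.5 FPKM. Gab2, a docking protein for PI3K, was 5.85, 5.88 and 4.81 FPKM in the controls, and the mutants had 8.62, 6.79 and 7.11 FPKM. All 3 had every mutant above every control, as 8.98% of all tested genes had. Without mutant 1 their limma adjusted p was 0.232, 0.296 and 0.299. Shc4, also separated and chosen after its values were seen, was 1.49, 1.4 and 1.3 FPKM in the controls, and the mutants had 2.51, 1.81 and 2.19 FPKM.

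Genes listed here as negative regulators of the receptors went both ways, and their role in this tissue was not tested. Of 9 tested, 6 had a log2 change above 0 (median 0.088). The groups were separated upward for 3 and downward for 2, against 8.98% and 11.9% of all tested genes. Lrig3, a transmembrane protein of the LRIG family, was 16.9, 18 and 16.7 FPKM in the controls, and the mutants had 21.6, 20.5 and 19.9 FPKM. Errfi1, an inhibitor of the EGFR kinase that EGFR signalling induces, was 9.59, 10.7 and 9.36 FPKM in the controls, and the mutants had 14.7, 11.4 and 10.9 FPKM. Cblb, a ubiquitin ligase that sends receptors to degradation, was 7.54, 8.03 and 7.43 FPKM in the controls, and the mutants had 5.44, 6.16 and 6.66 FPKM. Chosen after their values were seen, Socs5 was the remaining gene separated upward and Lrig1, which lowers ERBB receptor levels, the remaining one downward. Lrig1 was 24.982, 25.5 and 28.7 FPKM in the controls, and the mutants had 17.9, 24.977 and 23.4 FPKM. For Lrig3, Errfi1 and Cblb limma gave an adjusted p of 0.695.

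In the RAS-ERK list below the receptors 5 of 10 had a log2 change above 0 (median -0.0021), and 2 of 10 without mutant 1 (median -0.065). Mapk3, the kinase ERK1, was 73.2, 72.1 and 65 FPKM in the controls, and the mutants had 60.6, 59.7 and 59 FPKM, with no overlap (log2 change -0.22, SE 0.094, limma adjusted p = 0.695). Map2k1, the kinase MEK1, was 48.4, 43.8 and 45 FPKM in the controls, and the mutants had 63.1, 55.1 and 48.3 FPKM. Nras, a RAS protein, had the lowest adjusted p of all 60 genes in any fit, 0.075 with array weights in limma, at 30, 28.2 and 26.5 FPKM in the controls, and the mutants had 27, 20.9 and 22.6 FPKM.

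In the PI3K-AKT list 3 of 10 had a log2 change above 0 (median -0.17), and 4 without mutant 1 (median -0.041). Akt2, an AKT kinase of insulin signalling, was 46, 45.7 and 53.8 FPKM in the controls, and the mutants had 38.3, 36.5 and 37.7 FPKM. Every mutant lay below every control (log2 change -0.36, SE 0.11, unadjusted p = 0.0176, limma adjusted p = 0.695), and without mutant 1 the change was -0.37 (limma adjusted p = 0.148). Pik3r1, a regulatory subunit of PI3K, was 30.8, 29.4 and 25 FPKM in the controls, and the mutants had 50 FPKM, 27.7 FPKM and 32.5 FPKM.

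Genes of cell motility and signalling that MEMO1 has been linked to had 4 of 10 log2 changes above 0 (median -0.030), and 4 without mutant 1 (median -0.0089). Cfl1, the actin-severing protein cofilin, was 561, 561 and 521 FPKM in the controls, and the mutants had 535, 470 and 498 FPKM. Irs1, an insulin receptor substrate, was 12.8, 12.5 and 13.1 FPKM in the controls, and the mutants had 17.1, 13.7 and 13.4 FPKM. Clasp2, which binds microtubule plus ends, was 11.2, 10.6 and 8.87 FPKM in the controls, and the mutants had 3.07, 8.48 and 11.1 FPKM.

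**Figure D4:**
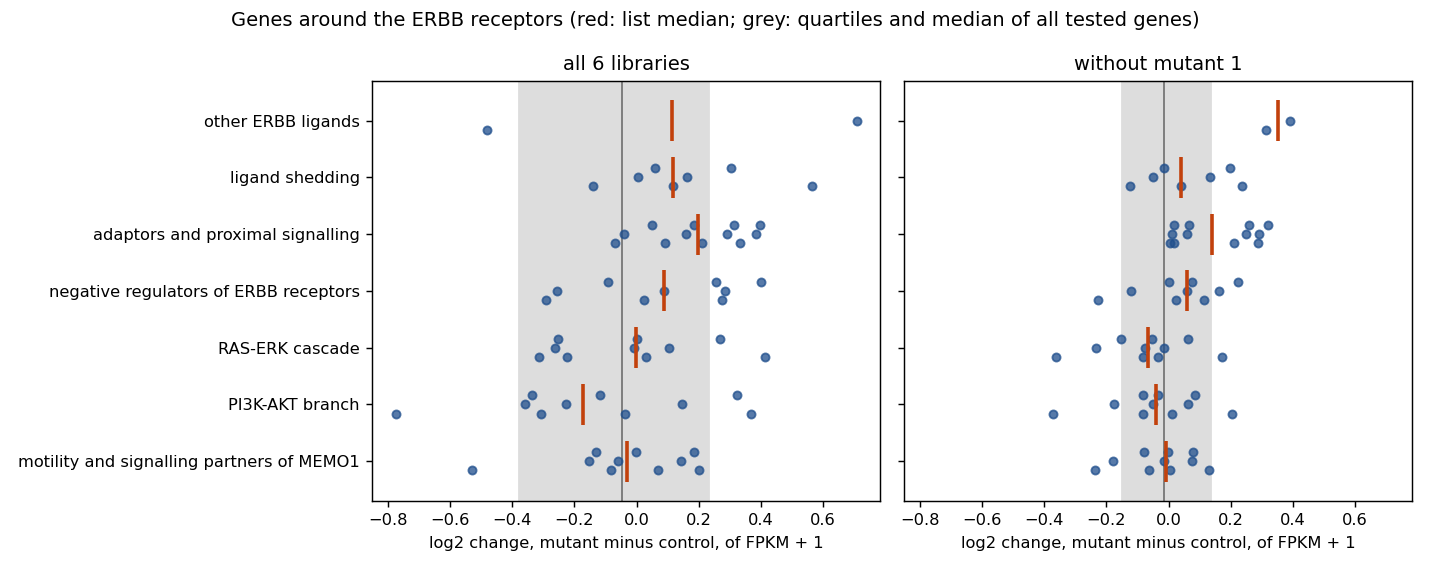
Log2 change of FPKM + 1, mutant minus control (horizontal axis), of each tested gene in 7 lists around the ERBB receptors, with all 6 libraries on the left and without mutant 1 on the right; red lines are list medians and the grey band and line the quartiles and median of all 15710 tested genes. Adaptors have 12 of 12 genes above 0 without mutant 1, some of them close to 0, against 47% of all tested genes. No gene of any list was called.

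The receptors and ligands are made by different cells, so markers of those cells were summed in each library. Cartilage markers were abundant in the labelled tissue: Col2a1, the main collagen of cartilage, was 1570 FPKM or more in every library. Schwann cell and glia markers, of which 10 of 10 were tested, summed to 108 to 136 FPKM in the controls and 120 to 136 FPKM in the mutants. These sums overlapped, and their part in the Erbb3 values was not tested. Within that list Foxd3 was among the genes listed at 0 in mutant 1.

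Epithelial markers, whose cells make EGFR, ERBB2 and ERBB3 and several ligands, summed to 735 to 749 FPKM in the controls and 419 to 459 FPKM in the mutants. Of 13 tested, 11 were below 0, with Cldn4 listed at 0 in mutant 1, and with array weights 7 of the 13 fell (limma adjusted p under 0.05, against 2.04% of all genes called), while 0 of the 13 were called with all 6 libraries weighted alike and 2, Krt5 and Krt19, without mutant 1 (limma adjusted p = 0.00625 and 0.02), where 0.0446% of all genes were called. Cartilage markers summed to 3178 to 4118 FPKM in the controls and 4550 to 5097 FPKM in the mutants, with 10 of 10 above 0, and osteoblast markers to 3797 to 5122 FPKM and 2641 to 3492 FPKM, with 8 of 10 below 0 and Bglap listed at 0 in mutants 1 and 3. In these 3 sums the groups did not overlap. Hbegf and Shc1 were higher in the same 3 libraries, and the part of these cell types in their values was not tested. Neuron markers overlapped, at 148 to 313 FPKM in the controls and 219 to 265 FPKM in the mutants, and so did muscle (1902 to 2592 and 1550 to 2266 FPKM) and macrophage markers (250 to 274 and 244 to 307 FPKM). Endothelial markers were 178 to 201 FPKM in the controls and 198 to 218 FPKM in the mutants. Housekeeping genes, 8 in all, had 4 log2 changes above 0 and 4 below (median 0.018), and were not all level. Gapdh was 20.7, 12.4 and 20.6 FPKM in the controls, and the mutants had 30.9, 37.8 and 22.4 FPKM. Actb was 1169 FPKM or more in every library, and why Gapdh was listed so far below it was not tested. Ppia (log2 change 1.11, SE 0.32) and Gapdh (0.74, SE 0.28) lay above every control in every mutant and Rplp0 below (-0.21, SE 0.089), each with a limma adjusted p of 0.695.

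**Figure D5:**
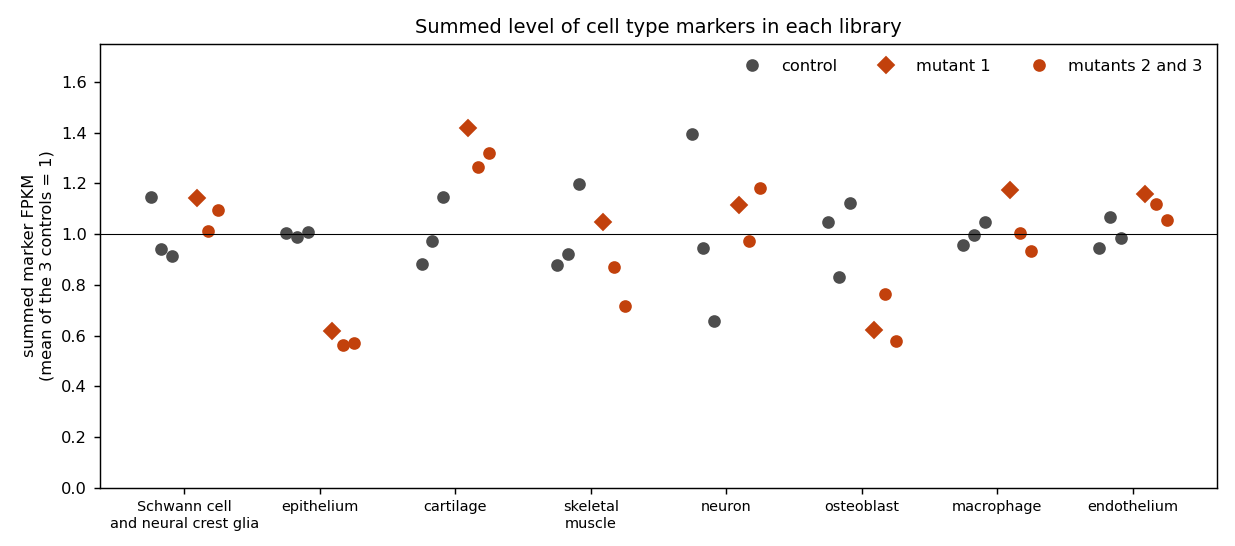
Summed FPKM of the markers of 8 cell types in each library, divided by the mean of the 3 controls (vertical axis, linear from 0); grey circles are controls, orange circles mutants 2 and 3, and the diamond mutant 1. Epithelial and osteoblast sums are lower and cartilage sums higher in all 3 mutants, and the Schwann cell sums overlap.

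The genes most like each of the 7 across the 6 libraries were found by the root mean square difference of log2 profiles centred on their mean, among 11195 genes (11196 for Nrg1) that averaged 5 FPKM or more. For Memo1 these were Sesn1, Abca9 and Rassf8, with differences of 0.030, 0.031 and 0.035. For Egfr they were Foxp1, Lrrc14 and Rnf141, at 0.14, 0.14 and 0.16. Each of these was highest in mutant 1, at 182, 104 and 70.7 FPKM, which a choice by likeness to Egfr favours. Erbb2 was followed by Parp12, Mcc and Tom1l2 (0.033 to 0.038), and Erbb3 by Samhd1, Stag1 and Gm13680 (0.027 to 0.028). Nrg1 was nearest to Map1a, Fuom and Zfp157 (0.068 to 0.088), and Hbegf to 1110038B12Rik, 6030419C18Rik and Gcc1 (0.047 to 0.060). Shc1 had the closest match of all, Rarg at 0.023, then Prkar1a and Mri1. Without mutant 1 the ranks of these 21 genes ran from 3 to 62. For all but Nrg1 this ranking counted the gene itself as nearest, so its neighbours could not come first. The order of likeness thus shifted without that library. The 21 genes had been chosen with the remaining libraries counted, so low ranks follow largely from that choice and are no separate support.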

How the data were processed

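RNA of whole cranial base was measured in 6 mouse embryos, and the authors deposited 1 table with an FPKM value for each library. The submitters' processing notes name Cufflinks and the build mm9. The sources used here do not give the aligner, annotation or filters, and the unit was taken from the tool and the values. The deposited fold is a signed score, and no source used here names the test behind the deposited p-value and q-value. The code 999999999 was treated as missing, which removed 15 entries and none of the 10 genes.

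Entries averaging 1 FPKM or more across libraries were fitted with limma (version 3.58.1, R version 4.3.3) on log2(FPKM + 1). The model held genotype alone, used a variance trend with robust estimates, and adjusted p by Benjamini and Hochberg over 15710 genes at a threshold of 0.05. This scale understates the change of low genes. The fit was tested on simulated data whose spread was that of the controls, made wider by a constant added to each variance. No simulated library stood apart as mutant 1 did, so that test does not cover such a library. The 15 alternatives changed the pseudocount (0.1 or 5), filter, normalization, weights, variance model, title word or replicates. At most 0.00641% of values were equal between any 2 libraries, so none was a copy.

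The 10 genes, the lists and the tests were chosen with earlier results of these data known. From each pathway list the 3 genes with the smallest p in the fit of all 6 libraries were named, plus any gene called in any fit, and some of these results are not reported here; Shc4, Socs5, Lrig1 and the cell type markers named were chosen after their values were seen. Of 162 list genes 3 were matched by gene ID and 2 were not matched. Replicate numbers follow accession order and pair nothing. RefSeq windows (GRCm38.p6) were matched by symbol.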

Additional observations from a re-analysis of the deposited data

How the results depend on the processing

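No gene of the 10 was called under any of the 15 alternatives. Of 104 values of the 7 tested genes under an alternative, 101 kept their direction. The exceptions were all for Memo1, whose log2 change was -0.0069 with quantile normalization, -2.5e-04 without control 1 and -0.011 without mutant 1; leaving out 1 library gave -0.011 to 0.15. Over all genes limma called 0 with 6 libraries, 1 with quantile normalization, 320 with array weights and between 0 and 7 when 1 library was left out, the 7 without mutant 1; 805 genes had an unadjusted p under 0.05 with 6 libraries. The limma adjusted p of Hbegf ranged from 0.101 with array weights to 0.872 without control 3, and its unadjusted p was under 0.05 in 10 of 16 fits, up to 0.144 with the title word as a block. Erbb4, Areg and Ereg could be fitted only with no filter on low values, where the limma adjusted p was 0.759, 0.761 and 0.761. Replicate numbers follow accession order and were not used for pairing; the fit with the title word as a block called 0 genes and turned the direction of none of the 7, and its Hbegf log2 change was 0.58, SE 0.32 (limma adjusted p = 0.598). Scaling each library by its median ratio moved the median of all genes by -0.044. Precision is limited by 3 embryos per group and by mutant 1, where 3447 of the tested genes were listed at 0, against 38 to 68 in the other libraries.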
